A study of Mus musculus with 15 samples.

Results

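Pancreatic ductal adenocarcinomas (PDAC) of mice were compared between late myofibroblast ablation combined with an antibody against CTLA4 and untreated late tumours. The comparison used 6 of the 15 bead arrays of the study, namely the 3 titled late ablation with anti-CTLA4 and the 3 late ablation controls, chosen by title. It covered 12957 features of 45281 probes, each detected (detection p-value under 0.05) on 3 or more of the 6 arrays. Of these features 10388 carried 1 gene symbol and 2569 did not. All mice carried αSMA-tk, a transgene in which the alpha smooth muscle actin (Acta2) promoter drives a thymidine kinase that makes dividing cells sensitive to the drug ganciclovir (GCV). All were of mixed C57BL/6 and Balb/c background. Late control mice received no GCV. Mice of the combined group received GCV at the PDAC stage and the anti-CTLA4 antibody. The 3 late ablation arrays, with GCV at the PDAC stage and no antibody, are given beside them as the step between. The labels name neither the age of the mice nor a dose. They give each array a number of its own without saying what it identifies, and the p-values rest on the spread between arrays.

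Myofibroblasts are contractile, matrix-producing stromal cells that surround the malignant ducts of PDAC, and alpha smooth muscle actin is their usual marker. CTLA4 is an inhibitory receptor of T cells that competes with CD28 for its ligands, and it is carried at high levels by regulatory T cells, whose defining transcription factor is FOXP3. Major histocompatibility complex (MHC) class II molecules present peptides to CD4+ T cells. Their alpha and beta chains are encoded together with class I and class III genes in the H2 region of mouse chromosome 17, which differs between inbred strains.

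The 3 combination arrays come from a table of their own and the late controls from a table of 12 arrays, so treatment and table cannot be told apart in any result below. Between 39.1% and 43.2% of probes were detected on the 6 arrays. Late control array 1 and combination array 1 had the lowest raw median signals of the 6, 96.2 and 95.2, against 125.9 to 142.1 on the other 4. Epithelial tumour markers were present throughout. Krt19, a keratin of ducts, read 13.32, 13.48 and 13.44 in late controls and 13.81, 13.24 and 13.16 with the combination, as normalized log2 signal, the scale of all levels here. One array in each group, late control 3 and combination 2, had high Xist (11.45 and 11.05) and low Eif2s3y (4.47 and 4.37), and the other 4 had the reverse, so this pattern was balanced between the groups and each group held arrays from more than 1 animal.

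Of the 12957 features, 1 was called at a Benjamini-Hochberg adjusted p under 0.05 in limma (0.00772% of all), and it was lower with the combination. It is D17H6S56E-5, a gene of the class III part of the H2 region. The gene lists used here place it among strain and sex markers. The strain makeup of each mouse is not given. Whether strain or a sequence difference under the probe has a part in its signal was not tested. Its level was 10.77, 10.75 and 11.22 in late controls, 9.29, 11.49 and 10.22 after ablation alone, and 4.49, 4.52 and 4.90 with the combination. The combination arrays lay far below every other array and were all undetected, whereas the other 12 arrays of the study read between 9.29 and 11.49. D17H6S56E-5 fell by 6.28 on the log2 scale (SE 0.448, adjusted p = 2.15e-05, lower on 3 of 3 arrays), which is at least 55.3-fold lower when undetected signals are set to the lowest detected signal of their array. Without background correction it fell by 4.11 (adjusted p = 0.00256). This and the other at-least folds here refer to background-corrected signal, and the differences of the genes given such folds were smaller without that correction. Over the 18 alternatives that tested it, adjusted p ranged from 5.62e-08 to 0.00624. Most of the difference lay between ablation alone and the combination (fell by 5.70, adjusted p = 7.44e-05), with a difference of -0.58 between ablation alone and late control, but both steps share the ablation arrays. A second, dim D17H6S56E-5 probe was detected on 2 late control arrays (5.99 and 5.45) and on no combination array.

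The region before and across the start of D17H6S56E-5 is printed first because it is the sequence that carries the only called gene, followed by H2-Aa and H2-Eb1, which had the next largest differences among named genes. Each run covers 250 bases before to 50 after the gene's start, as RefSeq gives it for GRCm38.p6, on the gene's own strand. They lie at chr17:35000697-35000996 (minus strand), chr17:34287774-34288073 (minus strand) and chr17:34305617-34305916 (plus strand). Capitals mark CCAAT on either strand (CCAAT or ATTGG), the letters of the Y box of class II promoters.
D17H6S56E-5: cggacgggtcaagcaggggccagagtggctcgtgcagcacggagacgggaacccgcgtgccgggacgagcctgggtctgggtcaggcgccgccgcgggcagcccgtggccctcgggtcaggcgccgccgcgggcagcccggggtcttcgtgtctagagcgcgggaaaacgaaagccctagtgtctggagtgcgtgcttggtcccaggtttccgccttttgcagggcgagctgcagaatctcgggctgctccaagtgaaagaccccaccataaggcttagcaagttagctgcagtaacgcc
H2-Aa: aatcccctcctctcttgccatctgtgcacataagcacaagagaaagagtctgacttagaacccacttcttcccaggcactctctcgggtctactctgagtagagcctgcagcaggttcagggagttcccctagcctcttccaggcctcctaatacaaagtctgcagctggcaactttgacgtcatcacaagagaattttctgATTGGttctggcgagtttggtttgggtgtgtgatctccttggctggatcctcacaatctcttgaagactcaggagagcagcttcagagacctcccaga
H2-Eb1: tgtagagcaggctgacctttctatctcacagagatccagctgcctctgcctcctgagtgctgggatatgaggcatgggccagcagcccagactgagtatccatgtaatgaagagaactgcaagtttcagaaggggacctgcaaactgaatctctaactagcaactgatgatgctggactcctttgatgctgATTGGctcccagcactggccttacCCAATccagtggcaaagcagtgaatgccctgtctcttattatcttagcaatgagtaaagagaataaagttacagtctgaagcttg
The letters occur in the H2-Aa and H2-Eb1 windows and not in that of D17H6S56E-5. They are present in 12289 of 32851 mouse promoter windows of this length (37.4%), so a match is a description only. These are reference sequences, and the alleles of the mice are not known.

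The neighbours of D17H6S56E-5 in the assembly are Lsm2, which encodes a protein of spliceosomal ribonucleoproteins, and Vars, which encodes valyl-tRNA synthetase. Vars read 11.08, 10.25 and 10.10 in late controls, 9.71, 10.69 and 9.64 after ablation alone, and 8.79, 8.24 and 8.89 with the combination. All 3 combination arrays lay below the other 12, whose lowest Vars value was 9.37. The Vars difference was -1.84 (SE 0.364, unadjusted p = 0.000195, adjusted p = 0.143), and a second Vars probe gave -1.82. Lsm2, on the other side, read 8.29, 8.84 and 8.94 in late controls and 7.999, 8.69 and 8.50 with the combination, so the groups overlapped (difference -0.29, adjusted p = 0.997). Wdr46, a nucleolar protein gene at the edge of the same region, read 6.88, 6.65 and 6.45 in late controls and 4.33, 4.70 and 4.65 with the combination, where it was undetected on all 3 arrays. The Wdr46 difference of -2.10 amounted to at least 2.9-fold (adjusted p = 0.451), was -0.82 without background correction, and only combination array 1 lay below the other 12 arrays, whose lowest Wdr46 value was 4.54. The second Wdr46 probe was also undetected on all 3.

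**Figure D1:**
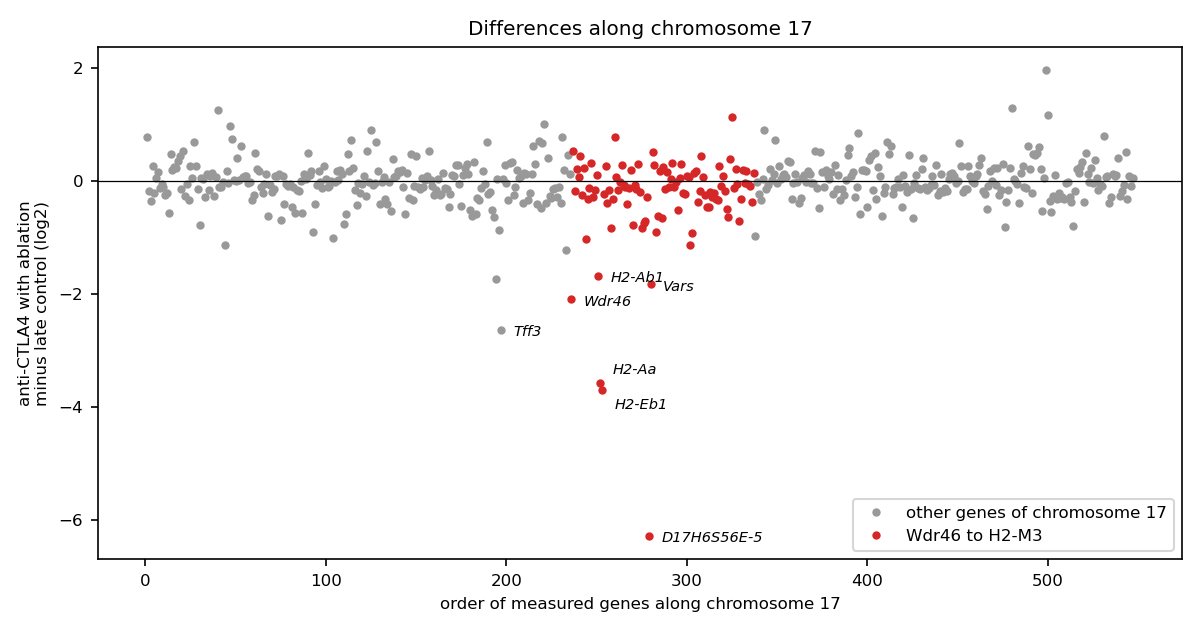
Each point is a measured gene of chromosome 17, placed by its order along the chromosome, with the log2 difference between the combination and late control on the vertical axis. H2-Q8 (difference 0.77) stands first in the order used and is not among the red points. Red points are the 102 genes from Wdr46 to H2-M3, among which D17H6S56E-5, H2-Eb1, H2-Aa, Wdr46, Vars and H2-Ab1 were lower by over 1.5.

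Across the stretch of chromosome 17 from Wdr46 to H2-M3, which was chosen after its values were seen and was therefore not tested, 102 genes were measured. Of these, 6 were lower by over 1.5 on the log2 scale and 0 were higher by that much. Outside it, 31 of 10271 genes were lower by over 1.5 and 15 higher. H2-Q8 (difference 0.77, overlapping groups) was counted outside, by the position used for it. The groups did not overlap for 10 lower genes (9.8%) and 2 higher genes (1.96%) in the stretch, against 4.72% and 3.98% outside it. Most of the 102 genes were near 0, as the plot along the chromosome shows. Tff3, the trefoil peptide of intestinal goblet cells, lies on the same chromosome outside the stretch and read 8.998, 10.89 and 10.11 in late controls and 7.72, 7.18 and 7.20 with the combination (difference -2.63, SE 0.658, adjusted p = 0.309).

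MHC class II genes were lower with the combination in 7 of 7 measured members, against 50.4% of all features, with a median difference of -1.03 against -0.004 for all features. None passed the adjusted threshold. The class II median was -1.58 without combination array 1, -1.95 without it and late control 1, and -0.65 without background correction. In bulk tumour RNA, fewer class II positive cells and less RNA per cell cannot be told apart. Differences between strains in these genes or under their probes were not tested either. H2-Eb1, a class II beta chain, read 8.21, 9.56 and 7.75 in late controls, 5.50, 7.54 and 6.09 after ablation alone, and 4.79, 4.76 and 4.85 with the combination, undetected on all 3 of those arrays and below the other 12. The H2-Eb1 difference was at least 10.4-fold, or -3.71 as fitted (SE 0.873, unadjusted p = 0.00085, adjusted p = 0.25). H2-Aa, the alpha chain of the A molecule, read 7.80, 9.80 and 8.06 in late controls and 5.22, 4.68 and 5.07 with the combination, detected on 1 of those 3 arrays (difference -3.57, SE 1.05, adjusted p = 0.451). Without background correction these differences were -1.93 for H2-Eb1 and -1.92 for H2-Aa.

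Other class II genes did not follow this pattern on every array. Cd74, the invariant chain that escorts class II molecules, read 9.77, 11.72 and 10.07 in late controls and 11.71, 8.90 and 8.98 with the combination (difference -0.65, adjusted p = 0.997). The Cd74 difference was -1.58 without combination array 1, -1.95 without it and late control 1, and -0.054 without late control 2. H2-Ab1, the beta chain partner of H2-Aa, read 9.46, 11.38 and 9.64 against 10.26, 7.52 and 7.67 (difference -1.68, adjusted p = 0.851, and a difference of -2.92 without late control 1 and combination array 1). Combination array 1 was thus within the late control range for Cd74 and H2-Ab1, and below it for H2-Aa and H2-Eb1. Combination arrays 2 and 3 were below that range for all 4 genes. Low values were not particular to the combination. After ablation alone Cd74 read 7.98, 9.32 and 8.50 and H2-Ab1 7.81, 9.02 and 8.21, all below the late control range. H2-Aa read 5.47, 8.60 and 6.81 after ablation alone. Relative to Cd74 on the same array, H2-Eb1 was at -6.92, -4.14 and -4.14 with the combination. On the other 12 arrays it was between -2.53 and -1.56. Relative to Cd74, H2-Aa was below the other 12 on 1 combination array and H2-Ab1 on 0. H2-Aa was also low on 2 early control arrays (5.17 and 4.43). Those 2 early control arrays were the ones with high H2-Ea, a class II alpha chain that is silent in C57BL/6 (10.35 and 9.92), while H2-Ea was undetected on all 6 arrays compared here. The strain makeup of each mouse is not given in the sources used here, and its part in these values was not tested. H2-DMa, H2-DMb1 and H2-DMb2, which load peptides onto class II, differed by -1.03, -0.13 and -0.33, with overlapping groups. Class I and immunoproteasome genes were balanced in sign, with 7 of 13 above 0 and a median of 0.06. The groups did not overlap for 2 lower members and 0 higher ones, against 4.48% and 4.27% of all features. The lower ones were H2-Q7 (difference -0.92, adjusted p = 0.563) and B2m (difference -0.31, adjusted p = 0.987).

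**Figure D2:**
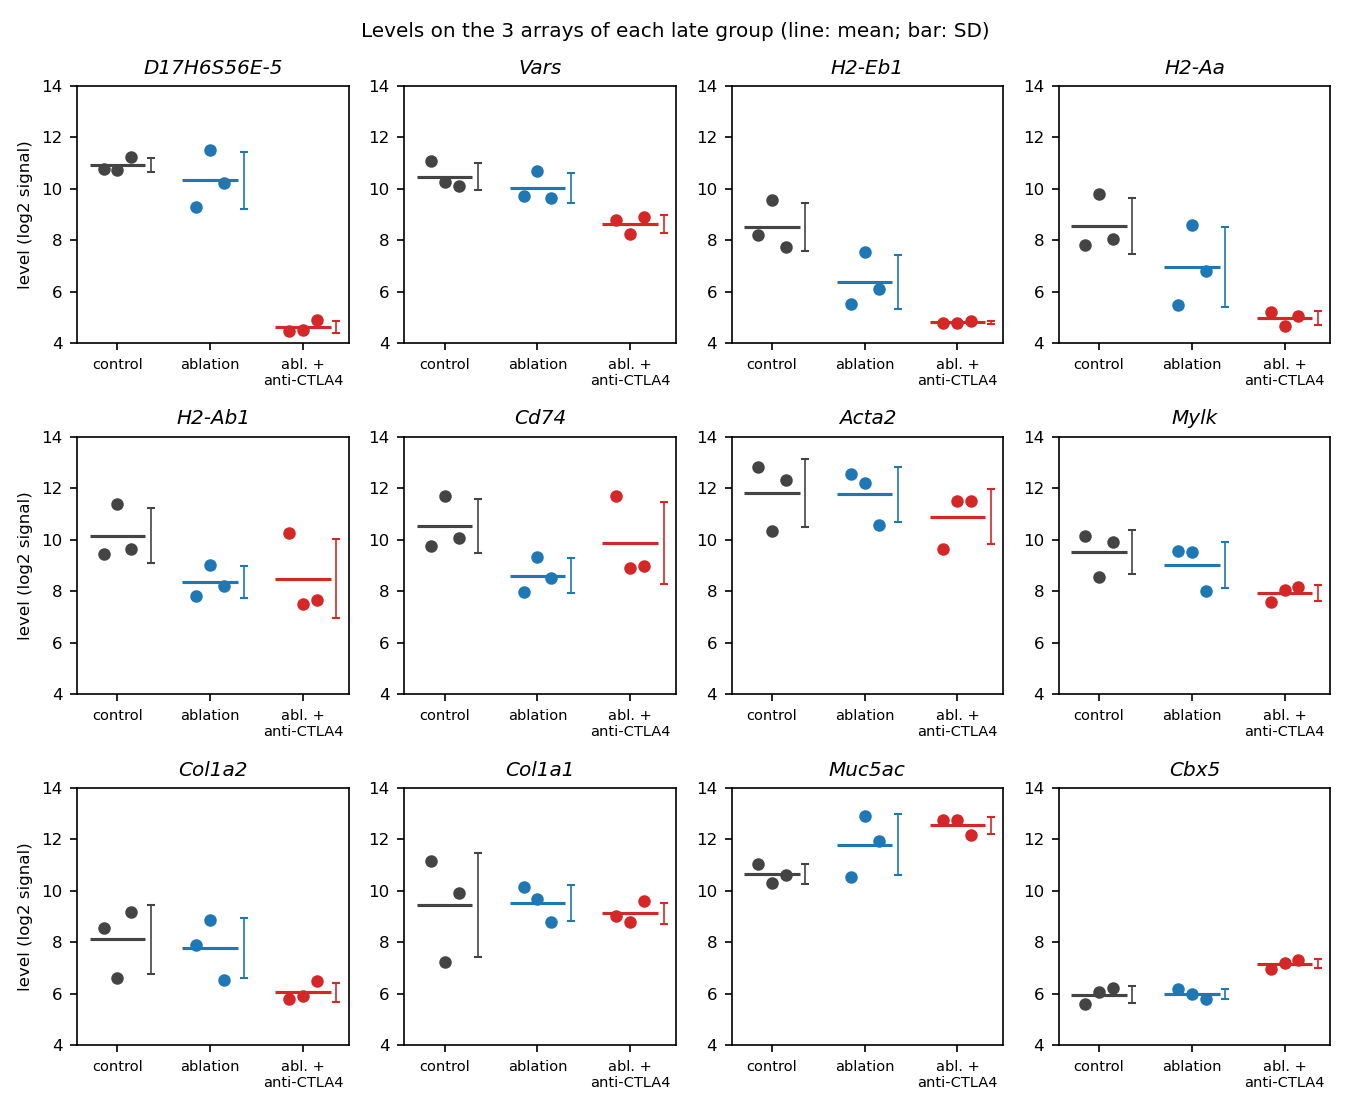
Normalized log2 signal of 12 genes on each array of late control, late ablation and late ablation with anti-CTLA4, with a line at the mean and a bar for the SD of the 3 arrays. D17H6S56E-5, H2-Eb1 and H2-Aa sit near the floor on the combination arrays, while Cd74 and H2-Ab1 stay bright on combination array 1.

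Acta2, whose promoter drives the kinase, did not separate the groups. It read 12.81, 10.34 and 12.32 in late controls, 12.55, 12.22 and 10.56 after ablation alone, and 9.65, 11.53 and 11.50 with the combination. The lowest value was combination array 1, and late control 2 was lower than the other 2 combination arrays. The Acta2 difference of -0.93 (SE 0.788) had an exact two-sided permutation p = 0.4, and 3 against 3 arrays cannot go below 0.1. Without late control 1 and combination array 1 together the Acta2 difference was 0.18. The 3 other detected Acta2 probes gave differences from -1.28 to -0.76.

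Genes of contraction and matrix were mostly lower, and none was called. Among smooth muscle and pericyte genes 10 of 14 were below 0 (median -0.36), against 50.4% of all features. Of the 14, 1 was past an unadjusted p under 0.05, a mark that 5.94% of all features passed. That gene was Mylk, the kinase of myosin light chain in smooth muscle cells, at 10.15, 8.56 and 9.91 in late controls, 9.55, 9.54 and 7.99 after ablation alone, and 7.56, 8.03 and 8.18 with the combination. The Mylk groups did not overlap, as for 8.75% of all features and 4.48% in the lower direction (difference -1.62, SE 0.445, adjusted p = 0.406), and its 2 other detected probes gave -1.32 and -1.24. Pdgfrb, the PDGF receptor of pericytes, differed by -0.79 and Tpm1, a tropomyosin, by 0.02. In the collagen and matrix list 19 of 24 members were below 0, with a median of -0.19. Col1a2, the alpha 2 chain of type I collagen, read 8.55, 6.62 and 9.18 in late controls and 5.77, 5.92 and 6.48 with the combination, below all 12 other arrays (difference -2.06, SE 0.73, adjusted p = 0.627). Its partner Col1a1 did not separate the groups, at 11.18, 7.23 and 9.92 against 9.02, 8.78 and 9.59 (difference -0.31, adjusted p = 0.997). The matrix median turned to 0.32 without late control 1, the array with the highest matrix level, and to 0.42 without it and combination array 1. It was -0.86 without late control 2, the array with the lowest matrix level. Of 17 fibroblast markers, 12 were below 0, with a median of -0.18. The fibroblast median turned to 0.18 without late control 1, 0.11 without combination array 1 and 0.47 without both, and was -0.74 without late control 2. Lum, a matrix proteoglycan, differed by -1.47 and Dcn by -0.14, with overlapping groups.

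Within the TGF-beta pathway, which drives myofibroblast differentiation, 7 of 11 genes were below 0, against 50.4% of all features. Of the 11, 2 passed an unadjusted p under 0.05 in limma, against 5.94% of all features. The list median was -0.29, and ran from -0.53 without late control 2 to -0.098 without late control 1. Ccn2, a matricellular target of the pathway, read 14.003, 14.24 and 14.09 in late controls and 13.12, 13.38 and 13.79 with the combination (difference -0.68, SE 0.247, adjusted p = 0.659). Tgfb3, a ligand, read 8.23, 8.27 and 8.13 against 7.505, 7.56 and 7.64 (difference -0.64, adjusted p = 0.696). The receptor gene Tgfbr1 differed by 0.32 with overlapping groups. Endothelial genes were below 0 in 10 of 16. Their median of -0.20 ran from -0.57 without late control 2 to 0.031 without combination array 3. Among the lower ones was Tie1, a vessel receptor kinase undetected on all 3 combination arrays (difference -0.77, adjusted p = 0.696). Kdr, the VEGF receptor, was higher without overlap (difference 0.48, adjusted p = 0.778). Pecam1, an endothelial adhesion molecule, and Vegfa, the vessel growth factor, differed by -0.40 and -0.33, and neither passed (adjusted p = 0.997 for both). The Pecam1 difference ran from -0.91 without late control 2 to -0.088 without late control 1, and that of Vegfa from -0.83 under array weights to -0.03 without combination array 2.

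**Figure D3:**
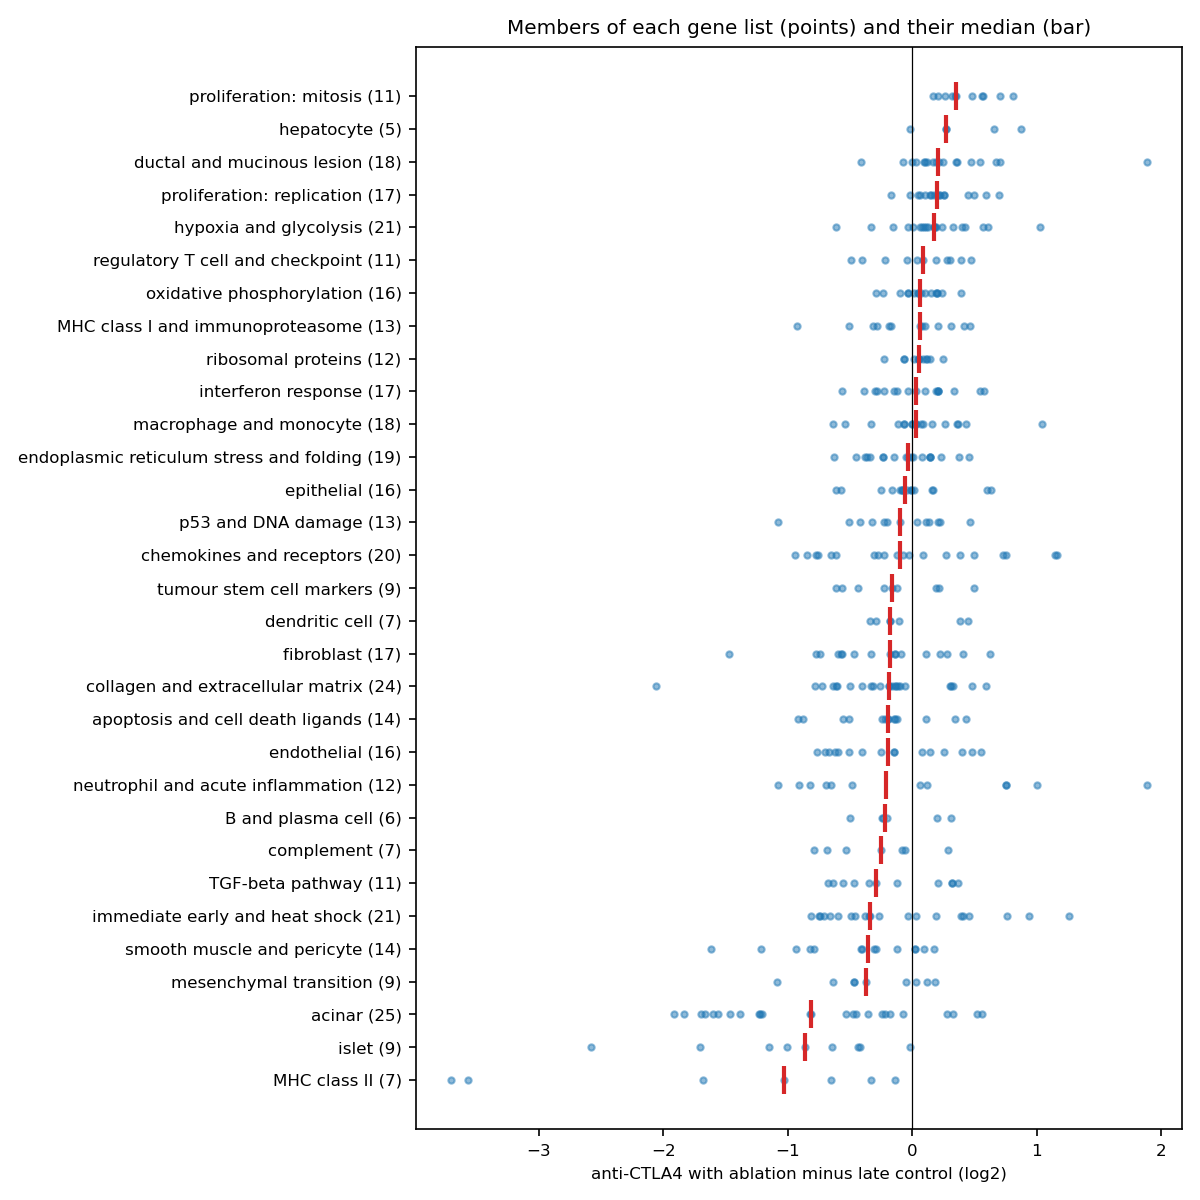
Log2 differences between the combination and late control for the members of each gene list with at least 5 tested (points, number in brackets) with the list median (red bar). MHC class II (median -1.03), islet (-0.86) and acinar (-0.81) genes have the lowest medians and, as drawn, the mitosis genes (0.36) the highest. The hepatocyte list reaches 5 points only because Trf is entered more than once. With Trf counted once its median is 0.46, above that of the mitosis genes.

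Genes of T cells, the cells that carry CTLA4, were mostly undetected. Cd3e, a chain of the T cell receptor complex, the coreceptor Cd4 and Gzmb, a granzyme of killer cells, were undetected on all 6 arrays compared, and Cd8a and Ifng were each detected on 1 combination array. None was tested. Of the pan T cell list, 4 of 16 genes with a probe passed the detection filter, and of the cytotoxic list 3 of 15. Cd8b1, which encodes the CD8 beta chain, read 9.88, 11.35 and 10.59 in late controls and 11.04, 10.40 and 10.48 with the combination (difference 0.03). Cd8a read only 4.36, 4.58 and 4.45 against 4.43, 4.35 and 5.15. Whether the bright Cd8b1 signal comes from T cells was not tested. Prf1, the pore-forming perforin, differed by 0.48 and Gzmm by -0.62. Neither passed (adjusted p = 0.997 and 0.707). Ctla4 itself was close to the floor, at 5.25, 5.14 and 4.58 against 4.94, 4.74 and 5.15, detected on 2 late control arrays and 1 combination array. Foxp3 read 8.84, 9.42 and 9.11 against 9.09, 9.10 and 9.43 (difference 0.08, adjusted p = 0.997), but 2 of its 3 other probes were undetected on all 6 arrays and the third was detected on late control arrays only. The regulatory T cell and checkpoint list had 7 of 11 genes above 0 (median 0.08, or -0.036 without combination array 1), and Cd274, which encodes the checkpoint ligand PD-L1, differed by -0.40 (adjusted p = 0.997). Macrophage genes had a median of 0.03 and interferon response genes one of 0.04, with 11 of 18 and 9 of 17 above 0. Over the alternatives these medians ran from -0.055 to 0.26 and from -0.30 to 0.32. The neutrophil list had 6 genes above and 6 below 0 (median -0.21, or 0.071 under array weights). S100a8 and S100a9, calcium-binding proteins of neutrophils, differed by -0.70 and -0.82 with overlapping groups, as did Il1b, a cytokine gene, by -1.08. The lipocalin gene Lcn2, among the brightest of that list, differed by 0.06 with overlapping groups. Camp, an antimicrobial peptide of granules, was high on combination arrays 2 and 3 (9.74 and 6.80) but not on array 1 (4.49), against 5.33, 5.05 and 4.99 in late controls.

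No gene of the exocrine or endocrine pancreas was called. Acinar genes were below 0 in 21 of 25, with a median of -0.81, yet the list's mean level relative to the mean of the 6 arrays was 1.79, -0.87 and 0.23 in late controls and -1.84, -0.25 and 0.94 with the combination. The highest and the lowest array were late control 1 and combination 1, and without both the acinar median was 0.83. Gp2, a zymogen granule protein, ran from 10.35 to 12.67 in late controls and from 8.45 to 10.62 with the combination (difference -1.83, adjusted p = 0.96). Islet genes were below 0 in 9 of 9, with a median of -0.86 that was -0.57 without late control 1, -0.31 without combination array 1, -0.23 without both and 0.039 under array weights. Gcg, the glucagon gene, read 11.81, 8.93 and 8.31 in late controls and 7.19, 6.40 and 7.70 with the combination (difference -2.59, SE 1.06, adjusted p = 0.726). Without late control 1 the Gcg difference was -1.52.

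Genes of ducts and mucinous lesions were above 0 in 16 of 18, against 49.6% of all features, with a median of 0.20 that became -0.09 without late control 1 and combination array 1. Muc5ac, a gastric-type gel mucin that marks precursor lesions, read 11.06, 10.31 and 10.61 in late controls, 10.54, 12.90 and 11.95 after ablation alone, and 12.75, 12.74 and 12.15 with the combination. The late control and combination groups did not overlap, as for 4.27% of all features in the higher direction (difference 1.89, SE 1, adjusted p = 0.878). Cldn18, a stomach claudin, differed by 0.71 with overlapping groups. Cdh1 (E-cadherin) and Snai1, its repressor in mesenchymal transition, differed by -0.08 and -0.37, and both signs changed when single arrays were left out. All 11 measured mitosis genes were above 0 (median 0.36), but their mean level was -0.34, -0.59 and 0.28 in late controls and -1.32, 0.64 and 1.33 with the combination, so combination arrays held both the lowest and the highest values. The mitosis median was 1.30 without combination array 1 and -0.19 without combination array 3. Cdk1, the mitotic kinase, read 7.46, 6.58 and 7.64 against 6.32, 8.50 and 9.30 (difference 0.81, adjusted p = 0.993). Replication genes were above 0 in 15 of 17 (median 0.20), with Gins2 at 0.60 and overlapping groups. The replication median was 0.52 without combination array 1 and -0.125 without combination array 3.

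No gene was called higher with the combination. The 10 named genes with the smallest p-values in that direction are given here. Cbx5, the heterochromatin protein HP1 alpha, read 5.58, 6.05 and 6.24 in late controls, 6.18, 5.98 and 5.77 after ablation alone, and 6.97, 7.18 and 7.32 with the combination (difference 1.20, SE 0.212, adjusted p = 0.111). The combination arrays lay above all 12 others, as for 1.19% of features. The 2 other Cbx5 probes were undetected on all 6 arrays. Ino80d, a subunit of the INO80 chromatin remodeller, read 6.29, 4.59 and 4.64 in late controls and 7.26, 7.51 and 7.48 with the combination (difference 2.24, SE 0.431, adjusted p = 0.143, and 0.0123 without late control 1). Kat6a, a histone acetyltransferase, and Brd1, a scaffold of such enzymes, were undetected on all late control arrays and detected on all combination arrays, with bounds of at least 1.95-fold and 2.37-fold higher (adjusted p = 0.111 and 0.143). Ankhd1, an ankyrin repeat and KH domain protein, read 8.06, 7.87 and 7.74 against 9.13, 9.38 and 8.92 (difference 1.25), but another detected Ankhd1 probe gave 0.24. Gabpb2, a GA-binding protein subunit, differed by 1.53 and Setmar, a SET domain methyltransferase, by 1.03. Stk32b, a kinase, differed by 1.42, Zfp507, a zinc finger protein, by 1.15 and Ppargc1a, the coactivator of mitochondrial biogenesis, by 1.29. Adjusted p for these 5 genes ranged from 0.143 to 0.213. Without background correction the differences were smaller, at 1.002 for Ino80d, 0.58 for Cbx5, 0.42 for Kat6a, 0.56 for Brd1, 0.60 for Gabpb2, 0.41 for Setmar, 0.52 for Stk32b, 0.42 for Zfp507, 0.45 for Ppargc1a and 0.98 for Ankhd1.

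Among genes lower with the combination, Gadd45a, a stress-induced gene of the p53 pathway, read 9.89, 9.80 and 9.89 in late controls, 9.56, 9.54 and 9.86 after ablation alone, and 8.95, 8.96 and 8.43 with the combination. All 3 combination arrays were below the other 12, as for 0.888% of features (Gadd45a difference -1.08, SE 0.241, adjusted p = 0.221), and a second Gadd45a probe gave -0.34. Other p53 genes did not share this, with Cdkn1a at 0.11 and 6 of 13 list members above 0. Moxd1, a monooxygenase related to dopamine beta-hydroxylase, read 8.05, 7.31 and 8.26 against 6.22, 6.44 and 5.66 (difference -1.77, adjusted p = 0.213). Dennd5a, a Rab exchange factor, differed by -0.87, Pla2g6, a phospholipase, by -1.02 and Eid2, an inhibitor of EP300-dependent differentiation, by -0.93. Tmem38a, an intracellular cation channel, and Gabarapl2, an autophagy protein, were undetected on all combination arrays, at least 1.26-fold and 1.52-fold lower. Without background correction they differed by -0.28 and -0.30, Moxd1 by -0.99, Pla2g6 by -0.41 and Eid2 by -0.34. Bcl2l1, which encodes the survival protein BCL-XL, read 8.14, 8.95 and 9.14 against 8.03, 8.09 and 7.36 (difference -0.92, adjusted p = 0.621) and was below all 12 other arrays. Immediate early genes went both ways, with Klf4 at 0.94 and Junb at -0.81, each without overlap (adjusted p = 0.726 and 0.79).

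**Figure D4:**
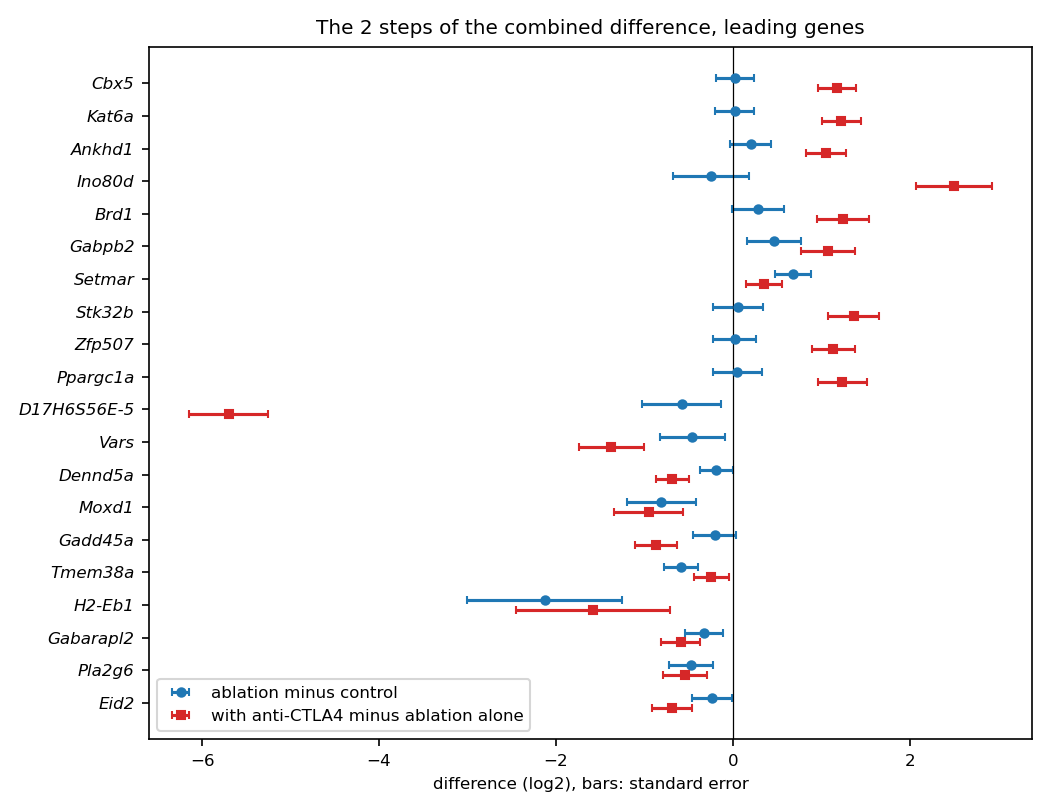
Log2 differences with standard errors for the 20 leading genes, split into ablation minus late control (blue) and the combination minus ablation alone (red). For D17H6S56E-5 the blue value is -0.58 and the red one -5.70, and for H2-Eb1 they are -2.13 and -1.58.

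The difference of each leading gene was the sum of the ablation step and the step between ablation alone and the combination. Both steps share the ablation arrays. Cbx5, Kat6a, Stk32b, Zfp507 and Ppargc1a differed by 0.02 to 0.06 between ablation alone and late control and by 1.13 to 1.36 between the combination and ablation alone. Setmar and Tmem38a had the larger part in the ablation step (0.68 and -0.59), and H2-Eb1 had differences of -2.13 and -1.58. For class II genes as a list the median was -1.59 in the ablation step and 0.14 in the other. Across all features, 282 passed an unadjusted p under 0.05 in the ablation step (2.18%) and 986 in the step between the combination and ablation alone (7.61%), with 0 and 1 called by limma. The second step and the whole comparison, unlike the first, run between the tables.

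**Figure D5:**
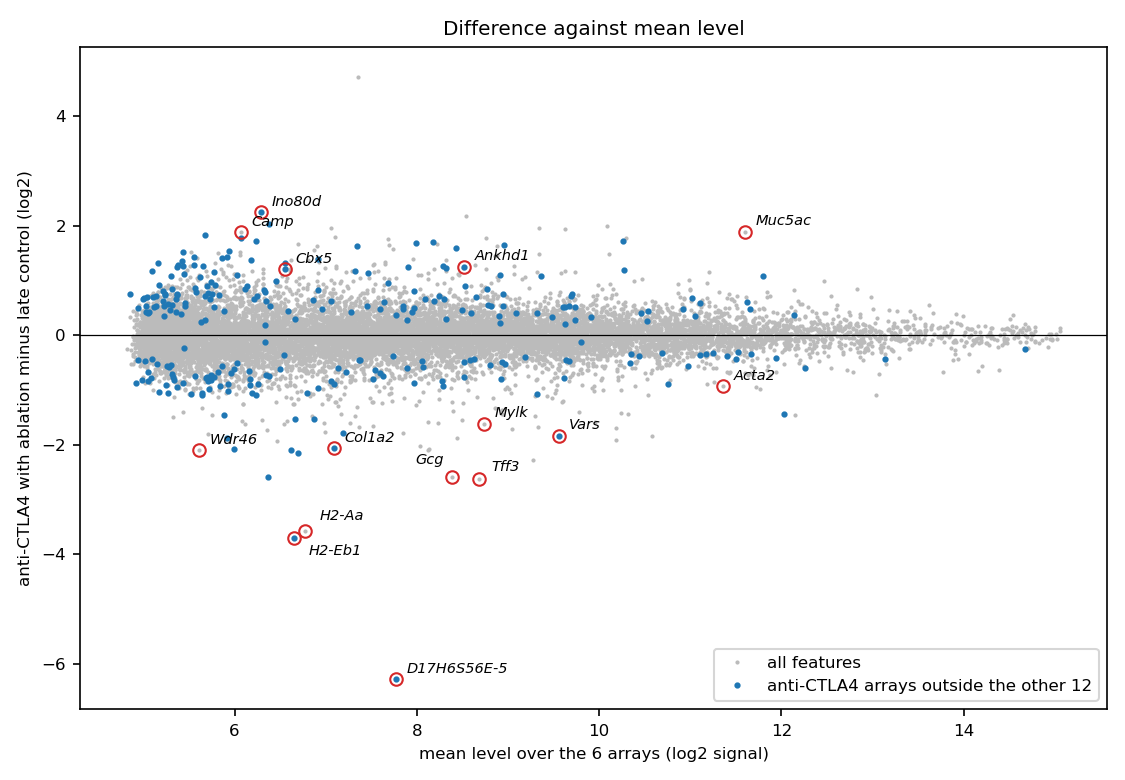
Each point is 1 of 12957 features, with its mean level over the 6 arrays (log2 signal) against its log2 difference between the combination and late control. Blue points are the 269 features whose 3 combination arrays lie outside the range of the other 12, and D17H6S56E-5 stands alone below -6.

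Over all features, 770 passed an unadjusted p under 0.05 (5.94%), of which 420 were higher (3.24% of all) and 350 lower (2.7%). For 269 features (2.08%) the 3 combination arrays lay outside the range of the other 12, 154 above and 115 below. The next features by p-value were probes without a symbol, at an adjusted p of 0.0565. The largest positive difference, 4.71, belonged to such a probe, ILMN_2476405, which read 11.80 and 12.74 on combination arrays 2 and 3 and 4.59 on array 1, against 5.32, 4.95 and 4.73 in late controls (adjusted p = 0.707).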

How the data were processed

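RNA from PDAC tumours, extracted with Trizol, was labelled as biotinylated cRNA (MessageAmp), per the labels' protocols, and read on Illumina MouseWG-6 v2 arrays with GenomeStudio (version not stated), per the submitters' processing notes. The deposited tables give, per probe and array, a bead signal as intensity, without background subtraction or normalization, and a detection p-value against negative controls. The 12-array and 3-array tables were joined by probe. Background was corrected by normexp (offset 16), with negative controls inferred from detection p-values, and signals were quantile normalized over 15 arrays and put on the log2 scale (limma 3.58.1, R 4.3.3). Per symbol the brightest probe was kept. The deposited value table, intensity on a linear scale and a straight-line function of the same signals with unknown slope and offset, served as an alternative. Its column medians were 21.9, 24.2 and 16.5 for late control and 22.1, 24.6 and 25 for the combination.

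Means of 5 groups were fitted with limma (lmFit, eBayes, two-sided). Features were called at a Benjamini-Hochberg adjusted p under 0.05. The members and gene lists were chosen with earlier results of these data known, so no list was tested. Named genes were, per direction, the 10 with the smallest p-values among those with 1 symbol, groups that did not overlap and detection on all arrays of the higher group, a fixed set of stromal, immune and epithelial genes, and in each list the 2 members with the smallest p-values and the 2 brightest. Wdr46, Lsm2, Junb, Xist, S100a9, Il1b, the H2-DM genes, the chromosome 17 stretch and the probe of largest difference were added after values were seen. The fit was tested on simulated data with 50 features shifted by each of 4 sizes. For each feature the simulated noise was normal, independent and of equal spread on all arrays. The real arrays differed in spread, with array weights from 0.31 to 4.08. Of these 50, 0 were called at 0.5 on the log2 scale, 13 at 1, 37 at 2 and 50 at 4. There were 5 false calls. Most shifts of 1 were thus missed, so a gene that was not called may still differ. In the real data larger differences were also not called, such as that of H2-Eb1 (-3.71), so the simulated shares may be too high. Alternatives were other scalings and background corrections, the deposited value table, other detection filters, array weights, a trend and robust fit, all probes, a replicate block and leaving out arrays. The number of arrays limits the precision.

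Between the 2 groups, the correlations of same-numbered deviations were -0.233, -0.206 and 0.082. Those of differently numbered arrays ran from -0.248 to 0.338. Deviations from the mean of so few arrays cannot show whether arrays of equal number were processed together. Array 1 had the lowest raw median signal of its group in all 5 groups. That median was 123.6 in early control, 107.8 in early ablation, 96.2 in late control, 99 in late ablation and 95.2 with the combination. Whether replicate numbers pair the arrays was not tested further.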

Additional observations from a re-analysis of the deposited data

How the results depend on the processing

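D17H6S56E-5 was called under 18 alternatives. The number of features called was 1 as reported, 3 under median scaling, 4 with the deposited value table, 7 with no detection filter, 7 with every probe as a feature, and 0 when detection on all 6 arrays was required, which removes D17H6S56E-5. Array weights, which gave late control 3 and combination array 2 weights of 3.66 and 4.08 and combination array 1 and late control 1 weights of 0.34 and 0.31, led to 1477 calls (802 higher and 675 lower), so that result rests mainly on 1 array per group. Leaving out arrays gave 1 to 13 calls, with 13 without late control 1, 2 without combination array 1 and 4 without both, a choice made after seeing the data. Features at an unadjusted p under 0.05 numbered 770 as reported, 1985 with no detection filter, 497 with detection on all 6 arrays, 3744 under array weights, and 538 to 1555 when arrays were left out, with 1256 without late control 1. Median scaling lowered the share of higher features among them from 54.5% to 44.5%, with a median of all features of -0.05. Combination minus ablation alone had 1 call as reported, 3 under median scaling, 3 with the deposited value table, 7 with no detection filter, 0 with detection on all 6 arrays, 25 under array weights, 3 with a trend and robust fit, 5 with every probe and 1 to 4 with arrays left out. The Acta2 difference ran from -1.67 to 0.18 when arrays were left out. The sign of Ctla4 turned with the deposited value table (0.03) and under array weights (0.11). With arrays left out the differences ran from -0.25 to 0.091 for Ctla4, -1.42 to 0.61 for Col1a1, -0.057 to 0.23 for Foxp3, -0.85 to 0.39 for Snai1, -0.26 to 0.12 for Krt19 and -0.52 to 0.12 for Cdh1. With the replicate block, a fit on the 6 arrays alone, 1 feature was called and 433 passed an unadjusted p under 0.05, against 548 for the same arrays without the block. The cause of these shifts was not tested. Probe signal near background limits genes such as those of T cells.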
